A study of Mus musculus with 8 samples.

Results

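Among the droplets captured from thymi of 1-week-old mice, a set passed a gate for cortical thymic epithelial cells (cTEC) yet held few RNA molecules and almost no mitochondrial transcripts. They are called mt-poor droplets here. A droplet was chosen when it had under 4000 unique molecular identifiers (UMIs, which mark single captured RNA molecules), at least 3 UMIs and at least 0.1% of its UMIs from Psmb11 and Prss16, at least 3 UMIs from Epcam, Krt8, Krt18 and Krt5 together and more than from Col1a1, Col1a2, Col3a1 and Dcn together, and under 1% of its UMIs from the genes encoded by mitochondrial DNA (mt- genes). This rule found 202 of the 3276 droplets of the 1-week libraries, 108 in well 1 and 94 in well 2, among 9953 droplets in the whole series. They were compared with the 337 droplets that met the same rule except for an mt- share of 5% or more (191 and 146, called mt-rich), while 45 shallow droplets lay between the limits and are called intermediate. Because the rule used RNA of these same droplets, differences in RNA between the classes are given as descriptions, with the values of both wells and no test.

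The study profiled thymic stroma of C57BL/6 wild-type mice by CITE-seq, in which the mRNA of single cells and the DNA tags of antibodies bound to their surface are counted together. Per the study's methods, thymi of several mice of an age were pooled, depleted of CD45+ cells, sorted into EpCAM1+ and EpCAM1- stromal cells that lacked CD45 and Ter119, and mixed so that the EpCAM1+ cells prevailed. The only pool of each age, 1 week or 16 weeks, was loaded on 2 wells, so that the wells differ by the droplets sampled and by technical steps, and the spread among mice is not known. The 1-week wells held 31917364 and 25654110 UMIs, of which the mt-poor droplets held 274176 and 236474. In all 4 libraries 15 barcodes occurred in more than 1 library, on 35 droplets, 2 of them mt-poor.

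Cortical TEC line the outer thymus, where they draw in lymphoid progenitors with chemokines such as Ccl25, provide Notch ligand and select developing T cells on peptides made by the thymoproteasome subunit Psmb11 and the proteases Prss16 and Ctsl. In an intact cell, most mature mRNA lies in the cytoplasm, long non-coding RNAs such as Malat1, Neat1, Kcnq1ot1 and Xist stay in the nucleus, and mt- transcripts stay inside mitochondria.

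Surface protein was read from 27 tags, each of 15 bases. The tags that bear on the mt-poor droplets are shown because their counts come from a readout that the rule did not use: MHC class II and EpCAM1 mark TEC, CD54 (the adhesion molecule ICAM-1) is abundant on cTEC, CD270 (HVEM) is a receptor of the tumour necrosis factor family, and the streptavidin-PE tag reports the lectin UEA1, which binds medullary TEC. They are written in lower case throughout, since the whole run is the tag.
MHCII: ggtcaccagtatgat
Epcam: acccgcgttagtatg
CD54: ataaccgacacagtg
CD270: gatccgtgttgccta
UEA1 (streptavidin-PE): aacctttgccactgc

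The mt- share that chose the droplets was far from the limit in most of them. A median mt-poor droplet had 3 mt- UMIs and an mt- share of 0.127%, and the highest share was 0.767%. The median was 13.4% in mt-rich droplets and 1.57% in cTEC-gated droplets of 16000 UMIs or more, here called large cTEC (399 and 276 droplets). Just inside the limit, 7 droplets had 0.5 to 1% of mt- UMIs, and just outside it 10 had 1 to 2%. Malat1 made up 3.77% of UMIs outside mt- genes in the former and 4.36% in the latter, and Tbata stood at 3387 and 5301 CPM (UMIs of a gene scaled to 1000000 UMIs outside mt- genes, the scale of every RNA level below). Each of the 13 mt- mRNAs was lower in mt-poor than in mt-rich droplets. For example, mt-Cytb, a subunit of respiratory complex III, stood at 454 CPM of all UMIs in mt-poor droplets, 38263 in mt-rich and 7867 in all cTEC-gated droplets of 4000 UMIs or more.

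The share of droplets under 1% of mt- UMIs fell and then rose again with depth. Mt-poor droplets were 32.6% of shallow cTEC-gated droplets in well 1 (exact 95% binomial interval 27.6 to 38.0%) and 37.2% in well 2 (31.2 to 43.4%), a mean of 34.9% ± 3.20 (SD, n = 2 wells). Among gated droplets of both wells, 123 of 212 (58.0%) had an mt- share under 1% at 2000 to 2500 UMIs, 43 of 131 (32.8%) at 2500 to 3000, 36 of 241 (14.9%) at 3000 to 4000 and 24 of 524 (4.58%) at 4000 to 8000. The share was 3.10% at 8000 to 16000 UMIs and 26.1% (176 of 675) in large cTEC. The mt-poor droplets thus crowded toward the deposited tables' lowest depth of 2000 UMIs, with a median of 2368 UMIs against 3071 in mt-rich droplets. How many similar droplets lay under 2000 UMIs was not analysed here. At the depth limit, the 9 mt-poor droplets of 3500 UMIs or more had 1.14% Malat1 and 11321 CPM Tbata, and 6 droplets of 4000 to 4500 UMIs with an mt- share under 1% had 3.63% and 5043. Binomial intervals cover counting error only.

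**Figure D1:**
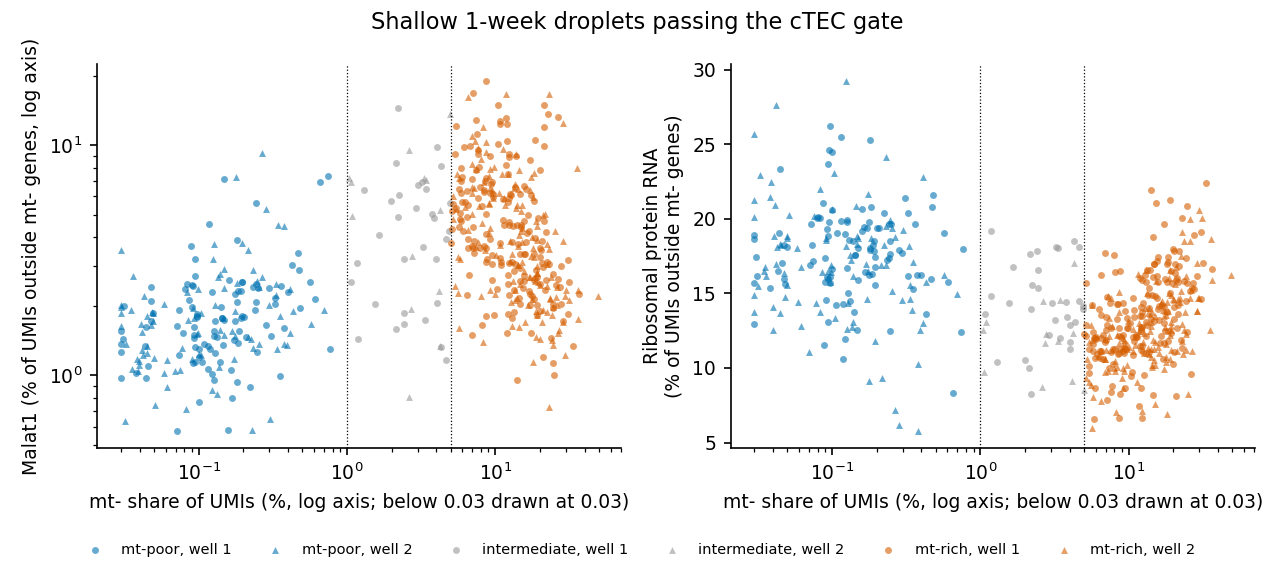
Each point is a shallow cTEC-gated droplet of the 1-week wells (circles, well 1, triangles, well 2), with its mt- share on a log axis against Malat1 (left, log axis) and against ribosomal protein RNA (right), both as percent of UMIs outside mt- genes. Dotted lines mark the limits at 1% and 5%. Blue mt-poor droplets centre on 1.73% Malat1 and 17.4% ribosomal protein RNA, orange mt-rich droplets on 3.81% and 12.7%, and few droplets lie between the limits.

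The markers given for these droplets, Tbata, Ccl25 and Krt18, stood near the level of large cTEC when droplets were summed. Tbata (chr10:61171954-61188841, mm10, plus strand), a gene expressed in thymic epithelium, was at 6036 CPM in well 1 and 7267 in well 2 in mt-poor droplets, at 2504 and 2158 in mt-rich, and at 8256 and 7518 in large cTEC. The chemokine gene Ccl25 (chr8:4325210-4360020, plus strand) was at 4428 and 4824 CPM, against 1474 and 1361 in mt-rich droplets and 6085 and 5018 in large cTEC. Krt18 (chr15:102028180-102032027, plus strand), a keratin of simple epithelia that the gate also used, was at 8448 and 8860 CPM, against 4122 and 3668 and against 9608 and 8746. On the log2 scale mt-poor droplets exceeded mt-rich ones by 1.51 ± 0.34 for Tbata, 1.71 ± 0.17 for Ccl25 and 1.15 ± 0.17 for Krt18 (SD, n = 2 wells). The wells of one class did not overlap those of the other for any of the 3 genes.

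Since free RNA in a cell suspension gives UMIs to cells that do not express a gene, these marker counts were set beside those of fibroblasts. Fibroblasts were droplets with at least 3 UMIs from Col1a1, Col1a2, Col3a1 and Dcn and more of these than of Epcam, Krt8, Krt18 and Krt5, so that their Krt18 count was limited by the rule. Those of 4000 UMIs or more (276 and 265 droplets), which should not make cTEC transcripts, held a median of 8 Tbata, 5 Ccl25 and 12 Krt18 UMIs a droplet at a median depth of 18641 UMIs. Mt-rich droplets held medians of 6, 3 and 10 UMIs at 3071 UMIs, not above the fibroblasts. Mt-poor droplets held 12, 7 and 18 UMIs at 2368 UMIs. Above the 95th percentile of fibroblasts of the same well lay 36 of 108 (33.3%) and 41 of 94 (43.6%) mt-poor droplets for Tbata, but only 3 of 191 (1.57%) and 1 of 146 (0.685%) mt-rich droplets. For Ccl25 the shares were 35.2% and 35.1% of mt-poor and 3.14% and 0.685% of mt-rich droplets, and for Krt18 20.4% and 25.5% against 0.524% and 0.685%. In large cTEC 89.2% and 88.0% passed the limit for Tbata. The gate genes Psmb11 and Prss16 together gave a median of 6 UMIs in mt-poor droplets, in mt-rich droplets and in fibroblasts alike, and 4 of 202 mt-poor droplets (1.98%) passed the fibroblasts' 95th percentile. By these counts, Tbata and Ccl25 passed the fibroblasts' 95th percentile in part of the mt-poor droplets and in few mt-rich droplets. The counts were not scaled to depth. As CPM, fibroblasts stood at 457 and 496 for Tbata and at 273 and 380 for Ccl25. Mt-rich droplets lay above them, at 2504 and 2158 and at 1474 and 1361. Whether the marker RNA of mt-rich droplets was free RNA was not tested. Nothing is read from Krt18 here, which the rules for both classes used. The part of free RNA in the marker differences between the classes was not tested.

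Nuclear-retained RNAs were low in mt-poor droplets. Malat1 (chr19:5795690-5802672, minus strand), a long non-coding RNA of nuclear speckles, was at 19376 and 19681 CPM in mt-poor droplets, 52302 and 46746 in mt-rich and 25552 and 28651 in large cTEC, a log2 difference from mt-rich droplets of -1.34 ± 0.13 (SD, n = 2 wells). Neat1 (chr19:5824708-5845478, minus strand), the scaffold of paraspeckles, was at 164 and 127 CPM against 1136 and 1028 in mt-rich droplets. Kcnq1ot1 (chr7:143203458-143296549, minus strand), which silences an imprinted domain in cis, was at 91.3 and 76.2 against 958 and 1111 CPM. Xist (chrX:103460366-103483254, minus strand), which coats the inactive X chromosome, was at 289 and 161 against 1337 and 1532 CPM. Meg3, an imprinted non-coding RNA, was at 40.2 and 67.8 against 326 and 480 CPM. Both wells of mt-poor droplets lay below both wells of mt-rich droplets for each of these 5 RNAs. For Malat1, Neat1, Kcnq1ot1 and Xist they also lay below both wells of large cTEC, where Neat1 was at 406 and 444 CPM and Xist at 516 and 573.

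A gene was counted as higher or lower when its level differed at least 2-fold the same way in each well, among genes with at least 30 UMIs over both classes and wells. Of 7050 genes measured, 85 were higher (1.21%) and 1070 lower (15.2%) in mt-poor than in mt-rich droplets, with a median log2 ratio over all measured genes of -0.20. The split depended on the scale, the wells and the droplets compared. With CPM taken over all UMIs, mt- genes included, 259 were higher and 763 lower and the median was 0.02. Well 1 alone gave 183 and 963 of 4613 genes measured, and well 2 alone 219 and 833 of 3718. With the depth limit at 3000 UMIs, 55 were higher and 323 lower of 4093. Against 37 mt-rich droplets chosen by their surface tags, 138 were higher and 291 lower of 3300. Over all alternative settings the median of all genes ranged from -0.34, with genes of at least 10 UMIs, to 0.20, against mt-rich droplets chosen by their surface tags, and it was 0.13 with genes of at least 100 UMIs. Ratios of the lists below are to be read against this range, and no direction is read from those within it or at its edge, which include the medians of the endoplasmic reticulum, p53, immediate early, cell cycle and MHC class I lists. Of the 7 nuclear-retained RNAs measured, 6 were lower and none higher, with a median log2 ratio of -2.63, and Tug1, at 32.9 and 46.6 against 56.9 and 63.9 CPM, did not pass the limit. Of 30 genes of chromatin and transcription with long mRNAs, 19 were lower and none higher (median -1.47). Among these were Son, a splicing co-factor of speckles, at 307 and 330 against 860 and 855 CPM, Srrm2, a speckle scaffold, at 267 and 237 against 585 and 629, and Nktr, at 124 and 148 against 504 and 429. The kinase gene Clk1, whose transcripts are known to be held in the nucleus with introns, was at 121 and 212 against 444 and 474 CPM. Since the rule cut on the same RNA, these counts describe the classes.

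Messages of ribosomal proteins, translation factors and cytosolic proteins mostly had ratios above 0, of under 2-fold. The mRNAs of ribosomal proteins, which are short and abundant, made up 177420 and 168443 CPM in mt-poor droplets against 131794 and 123334 in mt-rich, a log2 ratio of 0.44 ± 0.01 (SD, n = 2 wells). Of its 81 measured genes, 80 had a ratio above 0, none passed the 2-fold limit in either direction, and the median was 0.46. Rpl13, for example, was at 3979 and 4045 CPM against 3068 and 2651. Translation factors had a median of 0.47, with 18 of 21 above 0, and Eef1a1, which brings aminoacyl-tRNA to the ribosome, was at 4132 and 3896 against 2640 and 2778 CPM. Actin and other cytosolic genes had a median of 0.67, with 28 of 28 above 0. Tmsb4x, an actin-sequestering peptide, was at 5079 and 5209 against 3656 and 3378 CPM, and the ferritin heavy chain Fth1 at 4381 and 4197 against 2538 and 2019. No gene of the translation factor or cytosol lists passed the 2-fold limit.

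RNA of nuclear-encoded respiratory chain genes was mostly not lower in mt-poor than in mt-rich droplets. Of 76 measured, 74 had a ratio above 0, none passed the limit and the median was 0.57. Cox8a, a subunit of cytochrome c oxidase, was at 1487 and 1427 CPM in mt-poor droplets against 983 and 895 in mt-rich, and Ndufa11, of complex I, at 1549 and 1321 against 873 and 746. Summed, these 76 genes were at 33107 and 32750 CPM in mt-poor droplets, 22824 and 21516 in mt-rich and 30545 and 29250 in large cTEC. Genes for entry into and folding in the endoplasmic reticulum (ER), whose mRNAs are in part translated on its membrane, had a lower median of 0.19, with 18 of 31 above 0. The ER chaperone Hspa5 was at 548 and 656 CPM against 710 and 730 in mt-rich droplets, and Sec61b, of the ER channel, at 541 and 445 against 365 and 378.

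**Figure D2:**
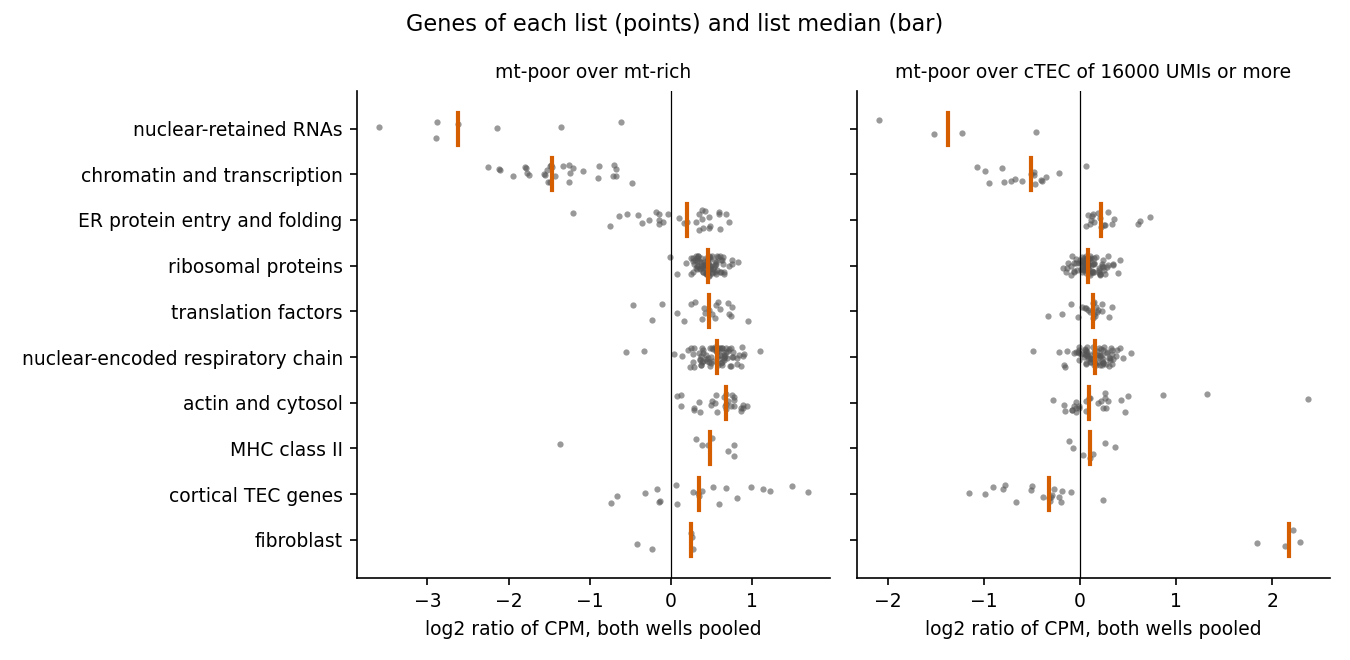
Points are genes of 10 lists and orange bars their medians, as the log2 ratio of CPM of mt-poor over mt-rich droplets (left) and over large cTEC (right), both wells pooled. Nuclear-retained RNAs and chromatin genes lie left of 0 in both panels, but for 1 chromatin gene on the right (medians -2.63 and -1.47, then -1.38 and -0.51), and the medians of ribosomal, respiratory chain and cytosolic genes lie right of 0 against mt-rich droplets and nearer 0 against large cTEC.

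The length of the transcript went with the ratio. Coding genes other than ribosomal protein genes were grouped by the total length of their annotated exons. The median log2 ratio of mt-poor over mt-rich droplets was 0.52 for 170 genes under 1000 bases, 0.34 for 927 genes of 2000 to 3000 bases, -0.48 for 1665 genes of 5000 to 8000 bases and -1.13 for 1616 genes of 8000 bases or more. Of those longest genes, 647 (40.0%) were lower and 1 was higher. Of 159 measured non-coding genes, 91 (57.2%) were lower and none higher. Weighted by UMIs, the geometric mean exon length of coding RNA other than ribosomal protein RNA was 3159 and 3178 bases in mt-poor droplets, 4120 and 4245 in mt-rich and 3455 and 3527 in large cTEC. Non-coding RNA made up 3.35% and 3.32% of UMIs outside mt- genes in mt-poor droplets, 8.32% and 7.99% in mt-rich and 4.25% and 4.64% in large cTEC. Without Malat1 it made up 1.41% and 1.35%, 3.09% and 3.31%, and 1.70% and 1.77%. In large cTEC with an mt- share under 1% (115 and 61 droplets) the mean length was 3232 and 3292 bases, and non-coding RNA made up 2.68% and 3.25%.

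**Figure D3:**
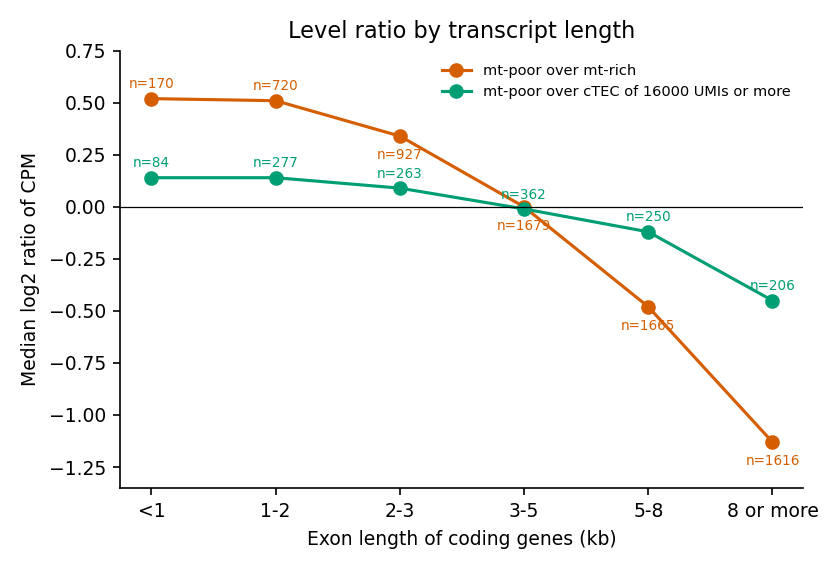
The median log2 ratio of CPM in mt-poor droplets over mt-rich droplets (orange) and over large cTEC (green) is drawn for coding genes other than ribosomal protein genes, grouped by exon length in kilobases, with the number of genes at each point. The orange line falls from 0.52 to -1.13 and the green line from 0.14 to -0.45.

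The 12 genes with the largest difference on the higher side, gate genes aside, were led by Ccl25 and by Hspb8, a small heat shock protein, at 110 and 152 CPM against 37.3 and 53.3. Of the 22 cTEC genes listed, 21 were measured, 4 were higher (Krt18, Tbata, Ccl25 and Pax1), none was lower and the median log2 ratio was 0.35, beside 1.21% higher and 15.2% lower over all measured genes. The list shares Psmb11, Prss16, Epcam, Krt8 and Krt18 with the rule that chose the droplets. Pax1, a transcription factor of the thymic anlage, was at 599 and 631 against 271 and 253 CPM. Isg20, an exonuclease induced by interferon, was at 840 and 872 against 336 and 269, and the protease inhibitor Cstb at 6540 and 6996 against 3144 and 2739. Slc22a7, an organic anion transporter, was at 212 and 258 against 98.1 and 87.9. The mitochondrial pyruvate carrier gene Mpc1, encoded in the nucleus, was at 347 and 411 against 163 and 178. Trmt112, Hcfc1r1, Copz2 and Snx3 completed the set, with pooled log2 ratios of 1.22, 1.34, 1.12 and 1.22. Of the 21 measured genes 15 had a ratio above 0 and 6 below, the latter being Ly75, Cd40, Enpep, Foxn1, Kitl and Dll4, with log2 ratios of -0.74, -0.67, -0.32, -0.17, -0.14 and -0.14. Foxn1 encodes the transcription factor that directs thymic epithelial development, and Dll4 the Notch ligand of cTEC. Among the others, Ctsl was at 6639 and 7212 against 4758 and 4920 CPM and Cxcl12 at 972 and 1076 against 512 and 522. Prss16 was at 2163 and 2350 against 2102 and 2235, with wells that overlapped in range.

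On the lower side, Gm4258 was at 0 and 4.24 CPM in mt-poor droplets against 218 and 274 in mt-rich, 9330162G02Rik at 3.65 and 4.24 against 122 and 125, and Gm17056 at 11 and 4.24 against 141 and 79.9. Gm4258 had 0 and 1 UMIs in mt-poor droplets, and apart from Ebf1 and Kcnq1ot1 the 12 RNAs of this group rest on 6 or fewer UMIs a well there. Tsix, which overlaps Xist on the opposite strand, was at 11 and 12.7 against 192 and 309 CPM, and Dleu2 at 18.3 and 8.47 against 202 and 197. Titin, Ttn, was at 11 and 8.47 against 133 and 221, and the ubiquitin ligase gene Herc1 at 11 and 8.47 against 126 and 123. Gm17334, annotated as coding with 907 bases of exon, was at 14.6 and 8.47 against 133 and 133 CPM. Ebf1, a transcription factor of stromal and B-lineage cells, was at 29.2 and 38.1 against 334 and 400. Satb1, a chromatin organiser abundant in thymocytes, was at 21.9 and 8.47 against 169 and 234, and Arpp21, also known from thymocytes, at 11 and 12.7 against 94.2 and 147.

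Marker genes of other cell types were counted in the same way, beside the 15.2% of all measured genes that were lower and the 1.21% that were higher. Of 5 mural cell genes, 3 were lower in mt-poor droplets, Pdgfrb, Cspg4 and the pericyte marker Rgs5 at 216 and 208 CPM against 962 and 887 in mt-rich and 40.9 and 81.3 in large cTEC. Acta2 and Myh11, the other mural genes, did not pass the limit, with log2 ratios of 0.58 and -0.37. The summed mural list was at 712 and 741 against 1541 and 1423 CPM. Of 5 endothelial genes 2 were lower (Egfl7, and Pecam1 at 29.2 and 33.9 against 106 and 93.2), while Kdr, Cdh5 and Emcn did not pass the limit, with log2 ratios of -1.45, -0.20 and 0.33. Of 9 measured thymocyte genes 2 were lower (Lck and Themis), a share not far from that of all genes. The summed thymocyte list was at 417 and 415 against 693 and 663. Medullary TEC genes were at 1253 and 1059 against 1331 and 1292 CPM in sum, with Ccl21a at 899 and 707 against 779 and 791 and Aire at 121 and 76.2 against 179 and 141. Fibroblast genes were at 1794 and 1918 against 1792 and 2001 CPM, myeloid genes at 69.4 and 84.7 against 92.2 and 55.9, with Itgax at 0 in both classes, and erythroid genes at 303 and 220 against 316 and 149. No gene of these last 4 lists passed the limit. The part of other cell types in the differences between mt-poor and mt-rich droplets was not tested.

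**Figure D4:**
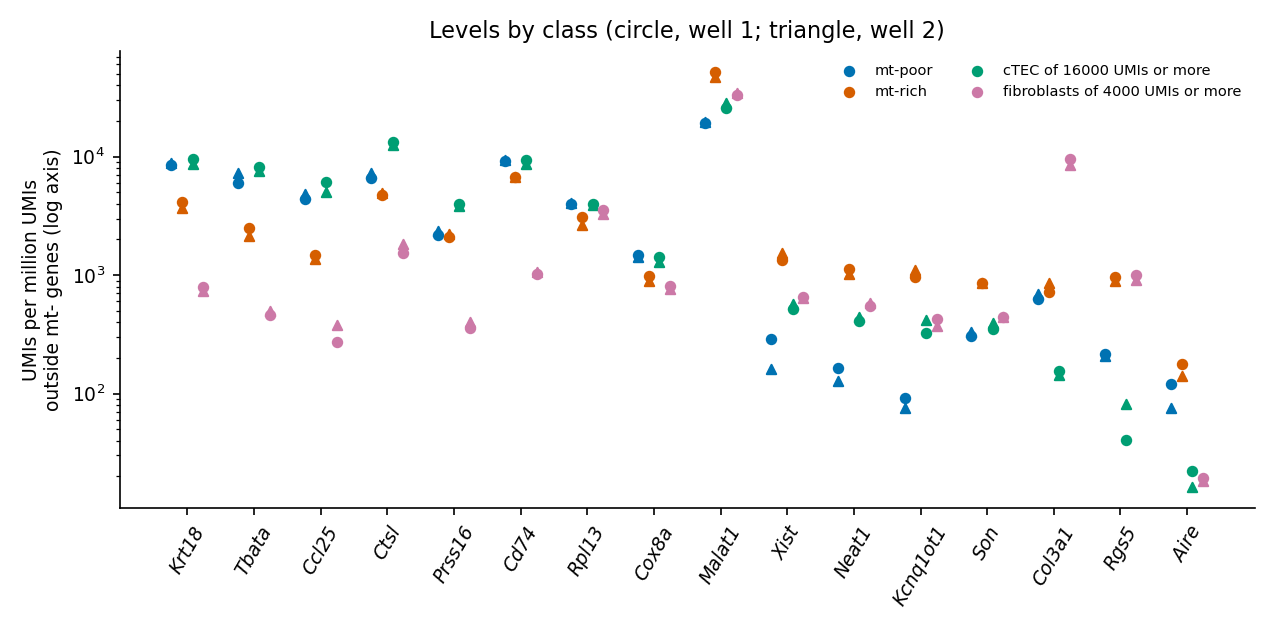
Levels of 16 genes in CPM (log axis) are drawn for mt-poor droplets (blue), mt-rich droplets (orange), large cTEC (green) and fibroblasts of 4000 UMIs or more (pink), a circle for well 1 and a triangle for well 2. Blue points sit near green ones for Krt18, Tbata, Cd74 and Rpl13 and lowest of all 4 groups for Malat1, Xist, Neat1 and Kcnq1ot1.

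For the remaining lists, no share of lower genes exceeded the 15.2% of all measured genes, and nothing is read from single calls. Of 8 measured MHC class II genes, 7 had a ratio above 0 (median 0.48), 1 was lower (Ciita, the class II transactivator) and none was higher. Cd74, the invariant chain, was at 9113 and 9440 CPM against 6773 and 6716, and H2-Aa at 3387 and 3236 against 2267 and 2427. MHC class I presentation genes had a median of -0.06 with none past the limit, and H2-K1 was at 1546 and 1393 against 1519 and 1817 CPM. Immediate early genes, which dissociation is known to raise, had a median of -0.08 with none past the limit, and Fos was at 1166 and 1474 against 1136 and 1092. Heat shock genes had a median of 0.35, with 1 of 13 lower (Hsph1), and Hspa8 was at 1820 and 1838 against 1301 and 1273. Genes of the p53 and stress response had a median of 0.21 with none of 13 past the limit, and Bax was at 106 and 191 against 124 and 128. Cell cycle genes had a median of -0.09, with 2 of 20 lower, Ccnb1 and Top2a, the latter at 76.7 and 63.5 against 249 and 232 CPM.

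A comparison with large cTEC was added after the data had been seen. Among 1553 genes with a mean of at least 100 CPM over the classes, 33 were higher (2.12%) and 19 lower (1.22%), with a median log2 ratio of 0.02. This minimum kept fewer and more abundant genes than the 30 UMIs used against mt-rich droplets, so that the counts and medians of the 2 comparisons cannot be set side by side. Against mt-rich droplets, the 2374 genes of at least 100 UMIs held 19 higher and 304 lower. Across 7453 genes, log2 CPM plus 10 of mt-poor droplets correlated at 0.933 with large cTEC, 0.853 with mt-rich droplets, 0.755 with fibroblasts and 0.941 with the sum of all 1-week droplets. Mt-rich droplets correlated at 0.882 with large cTEC and 0.938 with that sum. These are correlations across genes, which are not independent, and the sum holds the mt-poor droplets as a small part. The profiles also differ in counting error. Mt-rich droplets held 509506 and 375387 UMIs outside mt- genes and large cTEC 16345189 and 11689060, so no order of likeness is read from these values. Of the 4 nuclear-retained RNAs measured here, 2 were lower (Neat1, at 164 and 127 against 406 and 444 CPM, and Kcnq1ot1, at 91.3 and 76.2 against 323 and 414) and the median was -1.38. Of 17 chromatin genes, 16 were below 0 and none passed the limit (median -0.51). Ribosomal protein genes had a median of 0.08, respiratory chain genes 0.16, translation factors 0.14, cytosolic genes 0.09 with 2 of 28 higher (Tagln2 and S100a6), ER genes 0.21 with 18 of 18 above 0, heat shock genes 0.08, and MHC class I and II genes 0.09 and 0.10. Immediate early genes had a median of -0.25 and cell cycle genes, with 4 measured, 0.55. The 3 measured p53 genes had a median of 0.08 and the 2 thymocyte genes -0.45, with none past the limit, and no endothelial, myeloid or erythroid gene reached the level required.

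The cTEC list lay slightly under large cTEC, with 18 of 19 measured genes below 0 and a median of -0.33. Ly75, the endocytic receptor DEC-205, was the member that passed the limit, at 157 and 157 against 343 and 363 CPM. Ctsl was at 6639 and 7212 against 13308 and 12498 and Prss16 at 2163 and 2350 against 4009 and 3819. Other genes on the lower side were Mast4, at 183 and 140 against 626 and 668, Nav2, at 285 and 263 against 725 and 825, the desmosome gene Dsp, at 343 and 254 against 750 and 744, and Cd274, the checkpoint ligand PD-L1, at 190 and 220 against 418 and 477. On the higher side, all 4 measured fibroblast genes, which the gate also used, passed the limit, among them Col3a1 at 628 and 699 against 154 and 144 CPM. S100a8, of neutrophils, was at 230 and 191 against 18.1 and 16.3, Srgn, of blood cells, at 577 and 559 against 78.6 and 68.9, and Acta2, of mural cells, at 336 and 407 against 65.2 and 49.8. Rgs5 was the other mural gene that was higher, of 3 measured. Ccl21a, of medullary TEC, was at 899 and 707 against 208 and 318, and Pth, of parathyroid tissue, at 292 and 110 against 27.3 and 17.7. Counted per droplet rather than as CPM, the 4 fibroblast genes of the gate gave a median of 4 UMIs in mt-poor droplets and 11 in large cTEC, counts that the gate itself limited. The part of free RNA in these levels was not tested.

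The surface tags, which the rule did not use, were few. A mt-poor droplet carried a median of 334 tag counts in well 1 and 411 in well 2, against 2599 and 2975 in mt-rich droplets, 7444 and 9269 in large cTEC and 260 and 271 in fibroblasts. The mean differed from that of mt-rich droplets by -3.31 ± 0.30 on the log2 scale and from that of large cTEC by -4.31 ± 0.19 (SD, n = 2 wells). With 2 wells, an exact two-sided permutation of the classes within wells could give no p below 0.5, so no test was made. All 17 of the 27 tags with at least 100 counts in mt-poor droplets had lower means than in mt-rich droplets and in large cTEC, in both wells. Under 1000 tag counts were found in 97.2% and 93.6% of mt-poor droplets and in 29.8% and 26.7% of mt-rich ones.

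The MHCII tag was low in mt-poor droplets. It had a median of 226 and 326 counts in mt-poor droplets, 1286 and 1464 in mt-rich, 5180 and 6532 in large cTEC and 71.5 and 73 in fibroblasts. The lowest and highest mt-poor droplets had 26 and 1409 counts in well 1 and 31 and 1518 in well 2, and none passed the 95th percentile of fibroblasts (1668 and 1996 counts), where 40.8% and 39.0% of mt-rich droplets did. The Epcam tag stood at 16.5 and 16 in mt-poor droplets, 98 and 90 in mt-rich and 9 and 9 in fibroblasts. CD54 stood at 10.5 and 14.5, below the fibroblasts' 14 and 17 in both wells. Per 1000 RNA UMIs, however, the median MHCII tag count was 86.2 and 123 in mt-poor droplets, 134 and 159 in large cTEC and 406 and 490 in mt-rich droplets. For this tag, the ratio to RNA in mt-poor droplets was thus closer to that of large cTEC. No other single tag was set against RNA in this way. The RNA of the class II list stood at 17721 and 18088 CPM in mt-poor droplets, 13048 and 13501 in mt-rich and 17818 and 16848 in large cTEC.

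**Figure D5:**
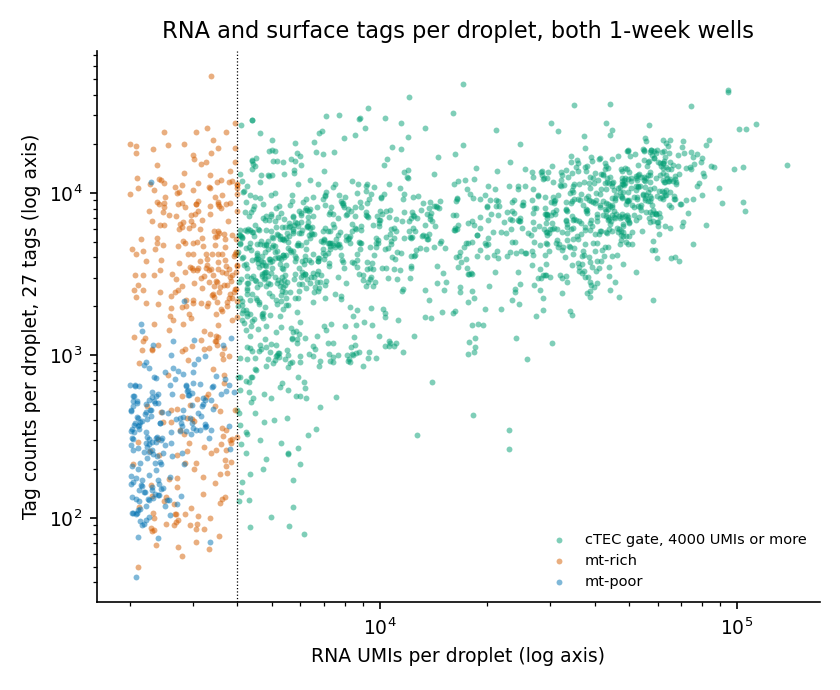
Each point is a droplet of the 1-week wells, with RNA UMIs against the sum of its 27 tags, both on log axes, and a dotted line at 4000 UMIs. Mt-poor droplets (blue) lie mostly under 1000 tag counts, mt-rich droplets (orange) spread from 50 to 52437, and gated droplets of 4000 UMIs or more (green) have a median of 5902.

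The makeup of the tags differed too. MHCII took 72.5% and 63.6% of tag counts in mt-poor droplets against 43.7% and 46.5% in mt-rich and 68.4% and 68.4% in large cTEC. CD270 took 3.59% and 3.11%, against 1.29% and 1.23% and against 4.02% and 3.87%. UEA1 took 39.3% and 36.9% of tag counts in mt-rich droplets against 6.90% and 7.08% in large cTEC, which lowers the shares left to other mt-rich tags. The part of UEA1 in the MHCII and CD270 differences from mt-rich droplets was not tested. Other tags took shares unlike those of large cTEC. CD54 took 5.09% and 3.41% in mt-poor droplets, 5.69% and 5.64% in mt-rich and 10.3% and 10.2% in large cTEC. CD63 took 0.735% and 0.560%, against 0.905% and 0.964% and against 1.39% and 1.42%. Sca1 took 2.28% and 3.25%, against 1.52% and 1.52% and against 0.398% and 0.596%, and was at 2.44% and 2.48% in fibroblasts. CD83, with 26 counts in all mt-poor droplets, had a log2 ratio of shares of -1.48 to large cTEC. UEA1, the medullary lectin, had a median of 9 counts in both wells of mt-poor droplets, 167 and 188 in mt-rich, 219 and 284 in large cTEC and 17 and 19 in fibroblasts. Above the fibroblasts' 95th percentile for UEA1 lay 2 of 202 mt-poor droplets (0.990%), 148 of 337 mt-rich droplets (43.9%) and 317 large cTEC (47.0%). Passing this limit thus did not set mt-rich droplets apart from large cTEC. Their mean UEA1 count was 1721 and 1831, far above their median, against a mean of 574 and 743 in large cTEC. The larger share of UEA1 in well 2 of mt-poor droplets (17.3%, against 4.05% in well 1) came from 1 droplet with 8226 UEA1 counts, and was 2.94% without it. Without that droplet the mean of all tags in well 2 was 465 in place of 583.

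To describe how mt-poor droplets varied among themselves, droplets were thinned at random to 1500 UMIs outside mt- genes to set them at 1 depth. The variance of the Tbata count over its mean, which is 1 for pure counting noise, was 4.28 and 6.39 in mt-poor droplets, 7.11 and 7.77 in large cTEC and 1.70 and 1.17 in mt-rich droplets. For Ccl25 it was 5.20 and 4.17, 5.57 and 5.50, and 1.42 and 0.992. This ratio also grows with the mean, which was 8.51 and 10.2 Tbata UMIs in mt-poor and 3.8 and 3.34 in mt-rich droplets (SD between droplets 6.03 and 8.06, and 2.54 and 1.98). Malat1 lay the other way, with a ratio of 10.8 and 13.3 in mt-poor and 33.1 and 31.2 in mt-rich droplets, as did Prss16, at 2.09 and 1.66 against 2.13 and 2.39. Cd74 was at 1.91 and 3.12 against 2.25 and 2.79. No general difference in spread between the classes is read from these genes. Tbata and Ccl25 counts rose together across mt-poor droplets, with a Spearman rho of 0.61 and 0.67 (108 and 94 droplets), compared with 0.16 and 0.17 in mt-rich droplets. Large cTEC gave 0.74 and 0.75. These correlations describe thinned droplets of 1 library each and carry no test. Tbata was at 0 in 5 of 202 thinned mt-poor droplets. Unthinned, Tbata ran from 0 to 73 UMIs with quartiles of 6 and 23.8, so the mt-poor droplets spanned both low and high Tbata levels.

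A thinned mt-poor droplet had a median of 888 and 894 genes, fewer than the 978 and 989 of mt-rich droplets (1 of 337 was too shallow) and close to the 907 and 920 of large cTEC. Without thinning the medians over both wells were 1254 and 1509 genes in mt-poor and mt-rich droplets. Malat1 among mt-poor droplets ran from 0.575% to 9.30% of UMIs outside mt- genes, with a median of 1.73%. It followed the mt- share even within the class, at 1.60% in the 83 droplets under 0.1% of mt- UMIs, 1.93% in the 81 of 0.1 to 0.25% and 2.57% in the 31 of 0.25 to 0.5%. The other nuclear-retained RNAs together were at 427, 532 and 576 CPM in the same droplets and at 3612 in the 7 droplets of 0.5 to 1%. Ribosomal protein RNA was at 17.8%, 17.6% and 15.7%, then 14.6%. Above the limit of the class Malat1 was at 4.36% at 1 to 2% of mt- UMIs, 5.06% at 2 to 5% and 6.04% at 5 to 10%, and was lower again above that, at 4.57% at 10 to 20% and 3.87% at 20% or more.

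In gated droplets of 4000 UMIs or more, Malat1 was also lower at low mt- shares, but it did not rise evenly. It made up 1.57% in the 13 droplets under 0.1% of mt- UMIs, 0.540% in 17 at 0.1 to 0.25%, 0.990% in 50 at 0.25 to 0.5%, 1.87% in 127 at 0.5 to 1%, 2.90% in 307 at 1 to 2%, 3.90% in 325 at 2 to 5%, 7.45% in 249 at 5 to 10%, 6.73% in 293 at 10 to 20% and 4.32% in 44 at 20% or more. Tbata stood at 8573, 10115, 9934, 9333, 7502, 6940, 2563, 2622 and 3356 CPM in these bins. Their median depths were 5118, 5952, 48474, 43916, 40322, 20158, 7007, 5802 and 5336 UMIs. The part of depth in these differences was not tested. Ribosomal protein RNA was at 15.4% and 17.2% in the lowest bins and at 10.6% at 5 to 10% of mt- UMIs. Large cTEC with an mt- share under 1% had a median of 254 mt- UMIs, 0.831% Malat1 and 7729 tag counts a droplet, where the mt-poor droplets had 3 mt- UMIs, 1.73% and 367.

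Shallow droplets poor in mt- RNA were also found outside the cTEC gate and at 16 weeks. In all, 231 shallow 1-week droplets had an mt- share under 1%, 29 of them outside the gate, with a median of 1.43% Malat1, 17.0% ribosomal protein RNA and 153 tag counts. Shallow fibroblasts included 9 droplets (6 and 3) with an mt- share under 1% and 36 (16 and 20) with 5% or more. The median of Malat1 was 1.17% in the former and 6.31% in the latter, and that of ribosomal protein RNA 16.1% and 10.4%. Tag counts had medians of 131 and 158. The 16-week wells held 0 and 8 mt-poor droplets under the same rule beside 9 and 19 mt-rich ones, too few in a well for a comparison. The 8 droplets had a median of 0.915% Malat1, 15 Tbata UMIs and 186 tag counts, and the 28 mt-rich ones 6.96%, 5 and 1638.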

How the data were processed

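Single-cell RNA and antibody-tag counts were taken from the tables the authors deposited, which hold whole-number UMI counts per gene and per tag for each droplet of 4 libraries. According to the submitters' processing notes and the study's methods, reads were aligned to mm10 and counted with STARsolo 2.7.9a. Every droplet in the deposited tables held at least 2000 UMIs. No value was normalised before deposit. Gene symbols, positions and exon lengths came from the GENCODE annotation of that build, in which 55141 of 55487 gene IDs had a symbol. The members and gene lists were chosen with earlier results of these data known.

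For each well, UMIs were summed over the droplets of a class and divided by the sum outside the 37 mt- genes, to give CPM. A gene with 0 UMIs in a class entered its ratio at a floor of 3 counts. Named genes were the markers and gate genes, the members of each list with most UMIs (up to 6) and the 12 with the largest difference in each direction, by the smaller of the 2 wells, among those called with at least 100 UMIs and used by no gate. Cxcl12, Ciita, Tagln2, Ccnb1, Hsph1, Themis and Itgax were named after their values were seen. The comparison with large cTEC, measured at a mean of 100 CPM or more, was added after the data were seen. Droplets were thinned to 1500 UMIs where stated. Doublets stayed in, and an alternative left out the 27 and 16 droplets with the highest Scrublet scores in scanpy 1.11.5. Python 3.11.15, numpy 2.4.6 and scipy 1.17.1 were used, and the call rule was checked on simulated counts. Intervals are exact binomial ones at 95%. The 2 wells of an age shared 1 pool of mice, so no p-value is given.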

Additional observations from a re-analysis of the deposited data

How the results depend on the processing

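All values here compare mt-poor with mt-rich droplets, as log2 ratios averaged over the wells unless a count or percent is named. Settings changed how many genes were measured, 7050 in the main analysis, so counts of called genes are given with that number where it differed. With the upper depth limit at 3000 UMIs, the mt-poor share was 48.7%, Malat1 -1.14, Ccl25 1.36 and ribosomal protein RNA 0.34. Of 4093 genes measured, 55 were higher and 323 lower. At 6000 UMIs the share was 24.1%, ribosomal protein RNA 0.51, and 1674 of 9946 genes were lower. With Psmb11 and Prss16 at 0.2% of UMIs the share was 42.0%, ribosomal protein RNA 0.36 and the lower genes 586 of 4542. Mt- shares of 10% or more in the comparison gave Malat1 -1.14, ribosomal protein RNA 0.35, tag counts -3.62 and 669 lower genes of 5666. Mt-poor droplets up to 2% gave ribosomal protein RNA 0.42. CPM over all UMIs gave Malat1 -1.11, Ccl25 1.93, ribosomal protein RNA 0.66 and 259 higher genes, 25.3% of those called against 7.36%, and CPM without Malat1 gave ribosomal protein RNA 0.39. Minimums of 1, 10 and 100 UMIs a gene gave 190, 169 and 19 higher genes of 20950, 11381 and 2374 measured, the last with 304 lower. A 1.5-fold limit gave 536 higher and 1785 lower (23.1% higher).

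The next 3 comparisons were chosen after seeing the data. Against the 37 mt-rich droplets high in the MHCII tag and low in UEA1, Malat1 was -1.05, Tbata 1.14, Ccl25 1.42, ribosomal protein RNA 0.42 and tag counts -2.97. Of 3300 genes measured there, 138 were higher and 291 lower (32.2% higher of those called). Mt-poor droplets of 2500 UMIs or more gave Ccl25 2.04 and ribosomal protein RNA 0.42, and median tag counts gave -2.91. The MHCII tag turned from -2.71 per droplet to 0.59 as a share of summed tags, and was -0.51 as a centred log ratio. Of the summed tags of mt-rich droplets, UEA1 took 39.3% and 36.9%. The cause of these shifts was not tested.

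In single wells the share ranged from 32.6% to 37.2%, Malat1 from -1.43 to -1.25, Tbata from 1.27 to 1.75, Ccl25 from 1.59 to 1.83, Krt18 from 1.04 to 1.27, ribosomal protein RNA from 0.43 to 0.45, tag counts from -3.52 to -3.09, higher genes from 183 to 219 and lower genes from 833 to 963. A mean of 2 wells cannot move by more than their SD when 1 is left out, so the ranges of the share and the ratios are no sign of stability. The gene counts are not means of wells. A single well needs no agreement with the other and measured 4613 or 3718 genes in place of 7050. Neither range of counts holds the main values of 85 higher and 1070 lower. Of the values under alternatives, 56 moved by more than the spread between wells or, for counts, by more than 1.5 times, and 1 reversed. No paired test was made, as no test was made at all, and each ratio was taken within a well before averaging. Ratios were not computed for the 16-week wells, which held 0 and 8 mt-poor droplets, under the minimum of 10. The deposited minimum of 2000 UMIs limits what can be said of shallower droplets, and a level from few UMIs is uncertain by its counting error.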
